A study of Mus musculus with 6 samples.

Results

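The calcineurin and NFAT genes examined here were the 9 genes Ppp3ca, Ppp3cb, Ppp3r1, Nfatc1, Nfatc2, Nfatc3, Nfatc4, Rcan1 and Rcan2, chosen by gene symbol from the 49366 genes in a table of read counts around transcription start sites. All 9 had a row. Counts in 36097 peaks of open chromatin were also deposited, and the 34 peaks that overlap one of the 9 genes or lie within 10 kb of its ends were linked to it. The data came from ATAC-seq, an assay in which a transposase inserts sequencing adapters into accessible DNA, on Pcm1(+) myonuclei of male C57BL/6J mice. The control group received AAV6:LacZ-shRNA, a muscle-tropic viral vector carrying a hairpin against a bacterial gene, and the other group received AAV6:Yap-shRNA, which targets the mRNA of the transcriptional coactivator Yap. Vectors were injected into gastrocnemius and tibialis anterior (TA) muscles on opposite sides of 8-week-old animals, and tissue was taken 28 days later. Each group had 3 replicates, and each replicate was a pool of 4 gastrocnemius and 4 TA muscles, so variation between single animals is averaged within a library. No label says which pools share animals, and the p-values therefore measure the spread between these pools.

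Calcineurin is a phosphatase that is switched on by calcium and calmodulin, and it is built from a catalytic subunit and a regulatory subunit. Once active it removes phosphates from NFAT proteins in the cytoplasm, which then enter the nucleus and bind DNA, often together with AP-1 or MEF2 factors. Regulators of calcineurin, the Rcan proteins, bind the phosphatase and restrain it. In skeletal muscle the pathway is best known for its link to nerve activity and to the slow, oxidative fibre programme.

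Counts per library totalled 3326803 to 10319467 in windows and 2588520 to 6871176 in peaks, and LacZ-shRNA replicates 1 and 2 were the shallowest. In peaks LacZ-shRNA replicate 3 differed most from its group, with a chi-square per peak of 6.90 and 5.53 against replicates 1 and 2, which differed from each other by 2.35. In windows it did not stand apart, with 5.37 and 3.39 against replicates 1 and 2, and 3.66 between these. This chi-square also depends on the depth of the libraries compared. The Yap1 window, at 12.1, 16.7 and 14.1 CPM (counts scaled to the size of each library) in LacZ-shRNA replicates 1, 2 and 3 and 14.7, 16.5 and 12.1 with Yap-shRNA, had groups that overlapped, and accessibility cannot measure the action of a hairpin on mRNA. The sorted nuclei carried accessible muscle genes: 8 muscle fibre markers had a median of 26.1 CPM per kb of window, against 4.45 over all windows. The lowest of them was the fast myosin gene Myh1, at 4.10. The series' design text speaks of cardiomyocytes, whereas the sample labels name gastrocnemius and TA. The medians of the other marker lists were 5.98 (9 leukocyte genes), 3.63 (8 fibroblast), 5.84 (8 endothelial) and 5.33 (6 satellite cell) CPM per kb. No marker had a library with a count of 0. Windows can also catch background cuts, and how much of these levels comes from them or from other nuclei was not tested.

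The first question was which of the annotated starts of each gene were accessible in these nuclei. The 9 genes have 67 annotated transcripts with 57 distinct starts, and their windows, 1 kb to each side of every start, merge into 32 separate segments. Of these 32 segments, 11 held a peak. Nfatc4 had no peak in any of its 2 segments or within 10 kb of the gene. The 34 linked peaks divided into 17 in introns, 12 over exons, 2 upstream and 3 downstream, and 11 of them lay within 1 kb of a start of their own gene. Ppp3ca had 9 linked peaks, Nfatc1 7, Nfatc2 6, Rcan2 5, Ppp3cb 3, Ppp3r1 2, and Nfatc3 and Rcan1 1 each. Peaks are named below by the distance of their centre from the 5′ end of the gene, counted along transcription.

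**Figure D1:**
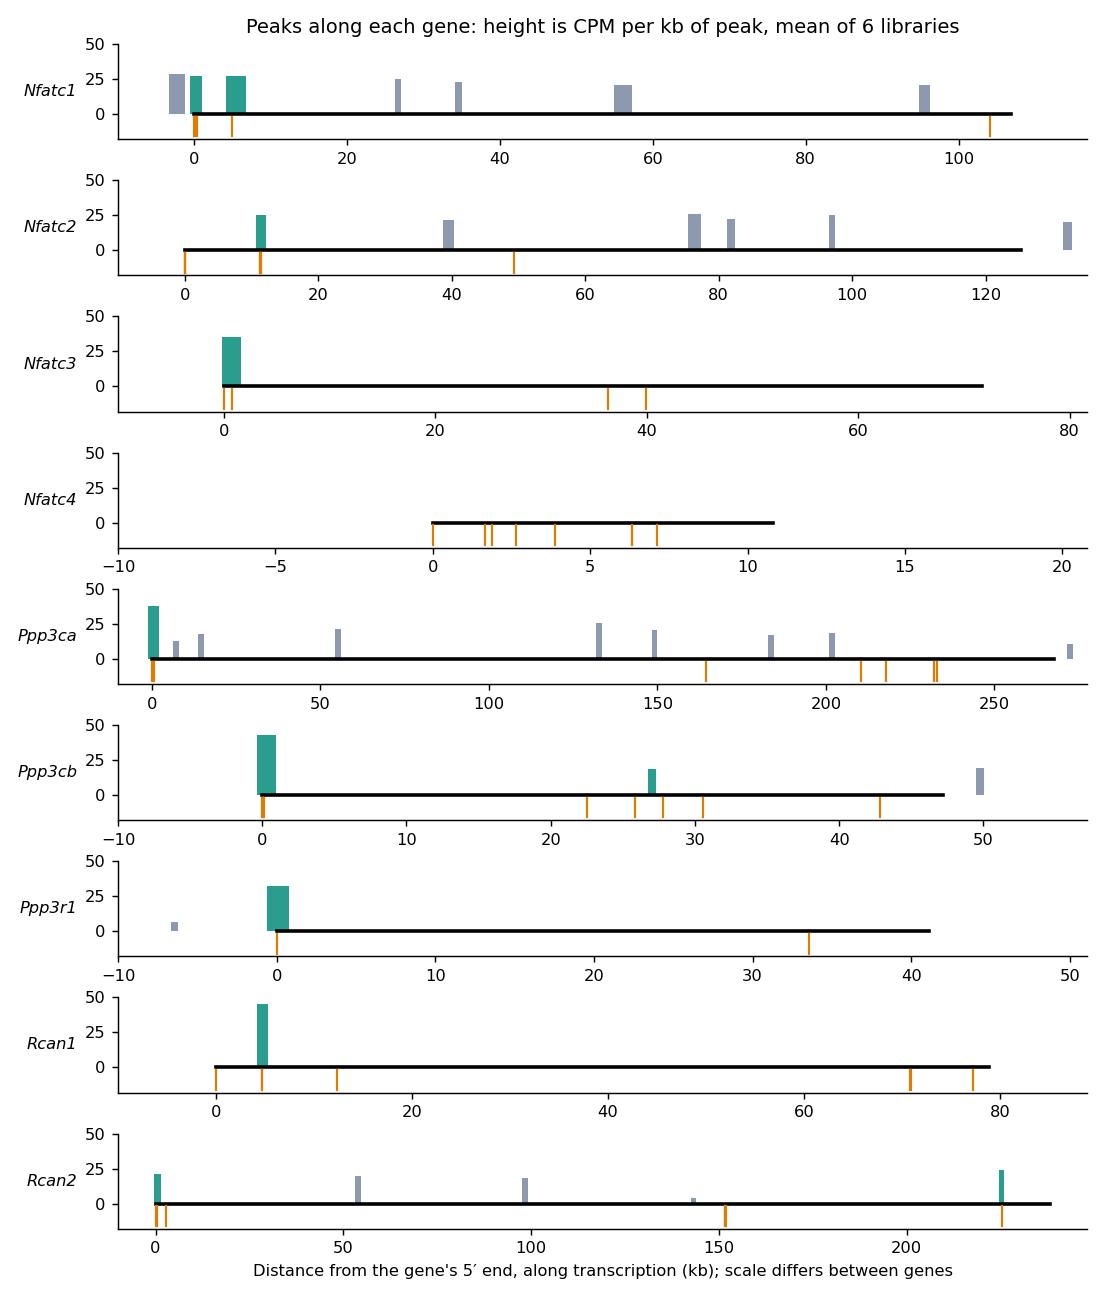
Peaks linked to each gene, by distance in kb from the 5′ end of the gene along transcription (x axis, a different scale for each gene) and height in CPM per kb of peak averaged over the 6 libraries (y axis). Black lines are genes, orange ticks annotated starts, green bars peaks within 1 kb of a start of the gene, and grey-blue bars other linked peaks, with narrow peaks widened to stay visible. Nfatc4 has no bar, and Rcan1 has 1 bar, at 4.7 kb, with no bar at the 5′ end of the gene or at its other starts.

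Among the catalytic subunits, Ppp3ca had the widest linked peak. It spans chr3:136669086-136672256 (GRCm38), covers both upstream coding starts of the gene and held 37.8 CPM per kb, above 94.2% of all peaks. The remaining 5 starts of Ppp3ca, which belong to non-coding and intron-retaining transcripts deep in the gene, had no peak within 1 kb. The start of Ppp3cb, the second catalytic subunit, was covered by a peak at chr14:20545627-20546926 with 42.7 CPM per kb. That peak is shared with the divergent start of 1810062O18Rik. Ppp3r1 encodes the calcium-binding regulatory subunit, and its single coding start was covered by a peak at chr11:17158629-17160045 with 32.6 CPM per kb. Peaks had a median of 20.1 CPM per kb, and those at promoters of any gene 25.3, so the main promoters of all these subunits stood above both values.

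Rcan1, an inhibitor of calcineurin, showed the clearest contrast between starts of 1 gene. Its peak at 4.7 kb (chr16:92465598-92466721) covers the neighbouring starts of a pair of long coding transcripts (92466143 and 92466146) and had the highest density of the 34 linked peaks, at 45.0 ± 5.32 CPM per kb (SD over 6 libraries), above 97.4% of all peaks. The internal coding start at position 92400077 lies in an intron of the longer transcripts. It is known as the promoter of the short, calcium-inducible form of the protein and as a target of NFAT. No peak was called within 1 kb of it, nor of the coding starts at 92458475 and 92470867. The last of these is the 5′ end of the gene. The start under the peak, called the upstream start below, is therefore not the most upstream one. The peak took 11.1% of the base pairs of the Rcan1 window and 38.2% ± 3.29 of its counts, with 32.0 CPM per kb inside the peak and 6.45 in the rest of the window. Both densities are on the scale of the window table. The Rcan1 window overlaps that of Gm46555, where reads are not all counted, so the peak share may be too high and the rest too low. The 250 bases upstream of the internal start and of the start under the peak are shown, to compare a promoter under a peak with one without. They are the strand of the gene, 5′ to 3′, from RefSeq (GRCm38.p6), and capitals mark the NFAT core GGAAAA or its reverse complement TTTTCC.
Rcan1 internal start, no peak, chr16:92400079-92400328, minus strand: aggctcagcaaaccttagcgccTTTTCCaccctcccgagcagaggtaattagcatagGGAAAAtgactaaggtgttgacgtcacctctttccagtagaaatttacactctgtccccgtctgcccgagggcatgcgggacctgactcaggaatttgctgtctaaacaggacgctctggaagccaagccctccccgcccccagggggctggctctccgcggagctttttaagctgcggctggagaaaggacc
Rcan1 upstream start, under a peak, chr16:92466170-92466419, minus strand: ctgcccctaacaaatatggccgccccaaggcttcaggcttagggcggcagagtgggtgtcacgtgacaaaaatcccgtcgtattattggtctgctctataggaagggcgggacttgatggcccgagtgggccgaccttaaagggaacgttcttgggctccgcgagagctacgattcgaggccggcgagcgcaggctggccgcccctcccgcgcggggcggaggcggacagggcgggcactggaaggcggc
The internal promoter holds 2 NFAT cores and 1 AP-1 match (TGANTCA), and the upstream promoter holds neither. At least 2 cores were present in 2.85% of 32851 promoters of this length, and at least 1 in 20.4%. The upstream promoter had 24 CpG dinucleotides and the internal one 11, against a median of 6. A match of letters does not show that a factor bound.

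The promoters of 2 other members also held 2 cores each, 1 without and 1 with a peak. They are printed to set the letters against accessibility, with the same capitals.
Nfatc4 coding start at 55824795, no peak, chr14:55824545-55824794, plus strand: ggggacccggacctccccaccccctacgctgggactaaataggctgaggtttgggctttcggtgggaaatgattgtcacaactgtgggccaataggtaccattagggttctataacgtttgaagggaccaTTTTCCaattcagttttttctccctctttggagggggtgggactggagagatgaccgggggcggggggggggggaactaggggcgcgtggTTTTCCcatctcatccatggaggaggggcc
Ppp3cb most upstream start, under a peak, chr14:20546574-20546823, minus strand: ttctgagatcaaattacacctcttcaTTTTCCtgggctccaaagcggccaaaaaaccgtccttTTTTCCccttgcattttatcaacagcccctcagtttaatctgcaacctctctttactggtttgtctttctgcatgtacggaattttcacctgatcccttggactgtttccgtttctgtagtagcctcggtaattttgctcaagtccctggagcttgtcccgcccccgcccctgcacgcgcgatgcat
Neither stretch overlaps an annotated exon. The Nfatc4 stretch lies in an intron of a longer Nfatc4 transcript, and the Ppp3cb stretch in an intron of transcripts of the divergent gene. Both NFAT cores of each promoter read TTTTCC on the strand shown. The promoters of Nfatc3, Ppp3r1 and Nfatc2 in the same table held 0 cores, and those of Rcan2 held 1 in the most upstream of 3. Ppp3ca and Nfatc1 promoters are not shown.

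Of the NFAT transcription factors, Nfatc1, Nfatc2 and Nfatc3 had peaks over coding starts. Nfatc1 has a pair of coding promoters, and both were covered by peaks of the same density, 27.3 CPM per kb at 0.2 kb and 27.3 at 5.4 kb. The second of these peaks is the wider, 2624 against 1523 bp, and another peak of 28.4 CPM per kb lay 2.3 kb upstream of the gene. Nfatc3 had a single linked peak, at chr8:106058662-106060440, with 35.3 CPM per kb over both coding starts. Nfatc2, the NFAT best known from lymphocytes, had its promoter peak of 24.96 CPM per kb at 11.4 kb (chr2:168589490-168590949). That peak covers 4 of the 8 distinct starts of Nfatc2, coding starts among them. The cluster of 3 starts at the 5′ end of the gene (168601632 to 168601657), which includes coding transcripts, had no peak.

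Nfatc4 was the member with no peak, and its window still held 7.37 ± 0.96 CPM per kb (SD over 6 libraries). That level was above 92.2% of the 31605 windows that had no peak and did not overlap the window of another gene, whose median was 4.29. The median was 6.90 CPM per kb for the 13000 windows that did have a peak and 4.14 for all 36366 without one. These larger sets include windows that overlap another and can lose counts, so the value of Nfatc4 is not directly comparable with 6.90. The window joins 8 starts in 8696 bp, so the counts are spread over a long stretch. Rcan2, a second Rcan inhibitor with a long gene, had peaks at its most upstream starts (0.5 kb, 21.0 CPM per kb) and at the start of a short coding transcript (225.3 kb, 24.0 CPM per kb). Its middle cluster of 3 coding starts (43952999 to 43953251) had none.

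Window levels were compared between genes per kb of window, over all 6 libraries. This level averages segments with and without a peak, so it depends on how many starts are annotated. Ppp3ca has 5 segments, 1 with a peak, and Nfatc1 has 3, 2 with a peak. By density of the promoter peak the order differs, with Nfatc1 (27.3) below Rcan1 (45.0), Ppp3cb (42.7), Ppp3ca (37.8), Nfatc3 (35.3) and Ppp3r1 (32.6). The Rcan1 window also overlaps that of Gm46555, where reads are not all counted. Nfatc1 was highest at 15.9 CPM per kb, followed by Ppp3r1 (10.6), Nfatc3 (10.5), Ppp3ca (10.2), Nfatc2 (10.1), Rcan1 (9.29), Rcan2 (9.02), Nfatc4 (7.37) and Ppp3cb (4.08). Nfatc1 lay above Ppp3r1 in 6 of 6 libraries with ranges apart. From Ppp3r1 down to Rcan2 the ranges of neighbours overlapped, and no neighbour was above the next in 6 of 6 libraries. Further apart in this order, Ppp3r1 and Nfatc3 each exceeded both Rcan1 and Rcan2 in 6 of 6 libraries, and Ppp3ca exceeded Rcan1, with overlapping ranges. Rcan2 exceeded Nfatc4 in 6 of 6 libraries although their ranges overlapped, and Nfatc4 lay above Ppp3cb with ranges apart. The low Ppp3cb value is uncertain. The peaks inside its window held 81.8 to 121% of the window's count in the LacZ-shRNA libraries, since reads in the stretch shared with 1810062O18Rik are not all counted in the window, and its promoter peak is the better measure.

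**Figure D2:**
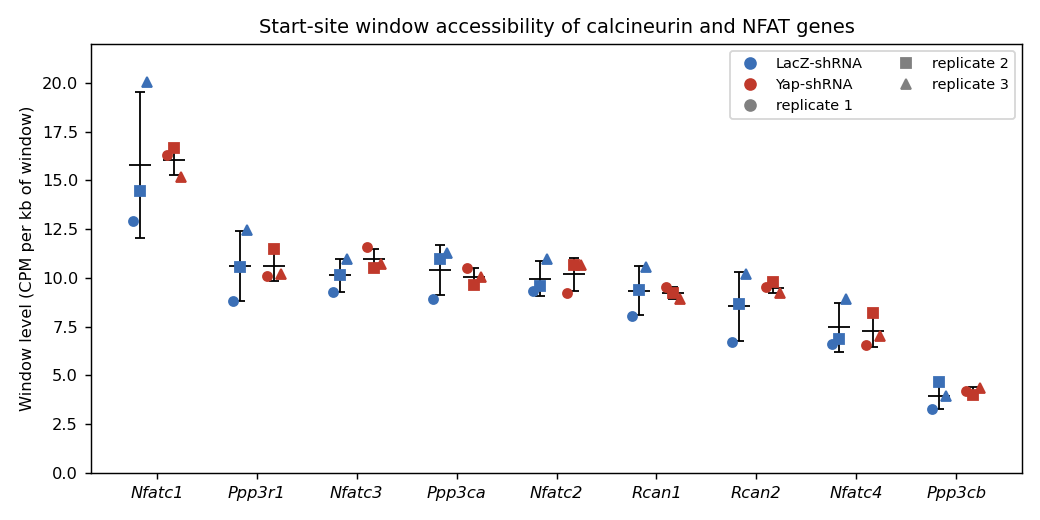
Window level of each gene in CPM per kb (y axis, from 0), with blue symbols for LacZ-shRNA and red for Yap-shRNA, 1 symbol shape per replicate, and black bars for the mean and SD of 3 libraries. Genes are in order of their mean, from Nfatc1 at 15.9 to Ppp3cb at 4.08, and the groups overlap in all 9.

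The main comparison asked whether accessibility at these genes differed after knockdown of Yap. It was tested with edgeR's quasi-likelihood test on all 49366 windows and, separately, all 36097 peaks. None of the 9 windows passed an adjusted p of 0.05 (0 of 9), where 0.0223% of all windows did. An unadjusted p under 0.05 was also seen in 0 of 9, against 4.9% of all windows, and the groups stood apart in 0 of 9, against 10.1%. DESeq2 and the likelihood-ratio test likewise called 0 of the 9. The log2 fold change, Yap-shRNA against LacZ-shRNA, was above 0 for 5 genes and below 0 for 4. Its median was 0.011, beside -0.014 over all windows, of which 47.3% were above 0. The 95% intervals together ran from -0.33 at the low end (Nfatc4) to 0.44 at the high end (Rcan2).

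Ppp3ca held 102, 126 and 130 CPM in LacZ-shRNA replicates 1, 2 and 3 and 121, 110 and 115 with Yap-shRNA. The Yap-shRNA values lay inside the range of the controls, and the log2 fold change was -0.05 (SE 0.14, 95% interval -0.32 to 0.23, edgeR adjusted p 0.985). For Ppp3r1 the values were 35.3, 42.3 and 49.8 CPM with LacZ-shRNA and 40.4, 45.9 and 40.8 with Yap-shRNA. Both groups were again intermixed, with a log2 fold change of -0.01 (SE 0.14, 95% interval -0.30 to 0.27). Ppp3cb gave 39.8, 56.4 and 47.3 CPM against 50.7, 48.3 and 52.7, a log2 fold change of 0.10 (SE 0.14, 95% interval -0.18 to 0.38), within the uncertainty of its shared window. For all 3 subunit genes the interval lay within -0.32 to 0.38 on the log2 scale.

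Among the NFAT genes, Nfatc1 held 81.4, 91.3 and 126 CPM with LacZ-shRNA and 103, 105 and 95.6 with Yap-shRNA. LacZ-shRNA replicate 3 was the highest of the 6 libraries and LacZ-shRNA replicate 1 the lowest, and the log2 fold change was 0.01 (SE 0.14, 95% interval -0.28 to 0.30, edgeR adjusted p 0.997). Nfatc3 had 63.1, 68.9 and 74.6 CPM with LacZ-shRNA and 78.7, 71.6 and 72.9 with Yap-shRNA, a log2 fold change of 0.11 (SE 0.13, 95% interval -0.16 to 0.38). Only 1 of the 3 control libraries exceeded any Yap-shRNA library. Nfatc2 (57.7, 59.6 and 68.1 CPM against 57.1, 66.3 and 66.1) and Nfatc4 (57.3, 59.9 and 77.5 against 57.2, 71.2 and 61.2) had log2 fold changes of 0.02 and -0.05. In both the lowest library of all was Yap-shRNA replicate 1 and the highest was LacZ-shRNA replicate 3.

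Of the inhibitors, Rcan2 had the largest log2 fold change of the 9 windows. It held 58.8, 75.9 and 89.3 CPM with LacZ-shRNA and 83.4, 85.5 and 80.7 with Yap-shRNA. The Yap-shRNA values were tightly grouped within the wide control range, and the log2 fold change of 0.15 (SE 0.14, 95% interval -0.14 to 0.44, edgeR adjusted p 0.951) did not pass. Rcan1, whose expression is often used as a readout of calcineurin activity, held 81.6, 94.8 and 107 CPM with LacZ-shRNA and 96.5, 93.4 and 90.3 with Yap-shRNA. Its log2 fold change was -0.02 (SE 0.14, 95% interval -0.29 to 0.25). Its window overlaps that of Gm46555 around 1 of its intronic starts. Over the 9 windows, LacZ-shRNA replicate 1 was the lowest of the 6 libraries at 7 and LacZ-shRNA replicate 3 the highest at 7, and the sign of 8 of the 9 windows depended on which library was left out.

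**Figure D3:**
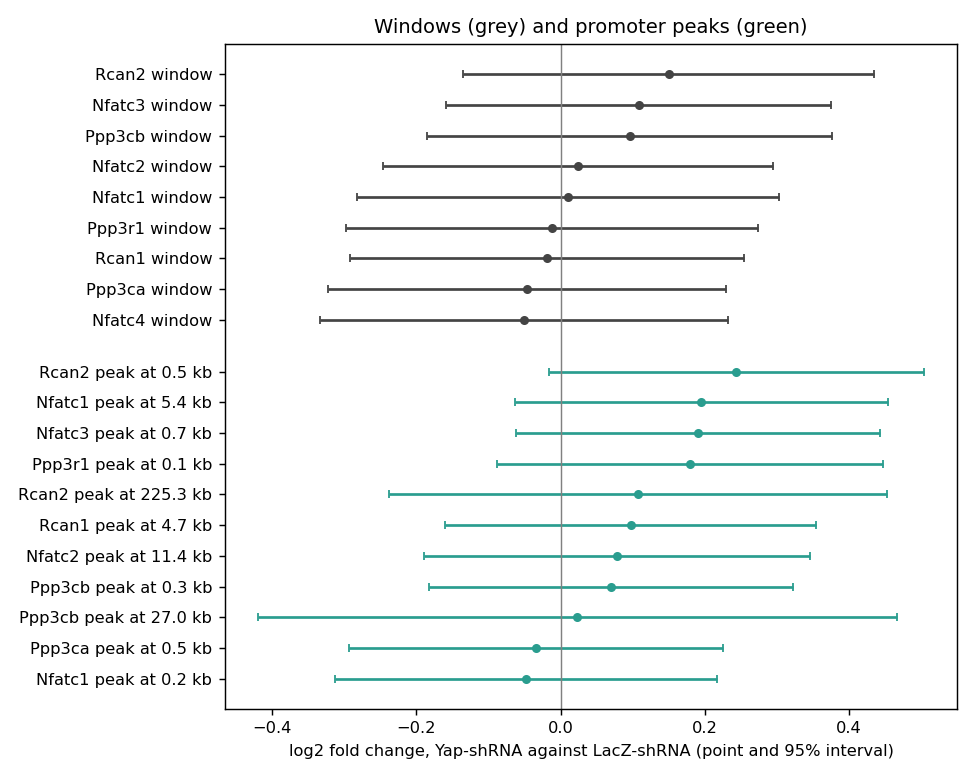
Log2 fold change of Yap-shRNA against LacZ-shRNA (x axis, point and 95% interval from edgeR) for the 9 windows in grey and the 11 promoter peaks in green. Each of the 20 intervals crosses 0, and the highest point is the Rcan2 peak at 0.5 kb, at 0.24.

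None of the 34 linked peaks passed an adjusted p of 0.05 (0 of 34), where 0.618% of all peaks did. Unadjusted p-values under 0.05 were found for 2 of the 34, both in Nfatc2 and both higher with Yap-shRNA, where 8.9% of all peaks had such a p and 3.59% were higher. The groups stood apart in 6 of the 34 linked peaks, 4 higher and 2 lower, against 13.3% of all peaks, of which 6.55% were higher and 6.76% lower. Log2 fold changes were above 0 in 21 and below 0 in 13, with a median of 0.08 beside -0.0026 over all peaks, where 49.5% were above 0. At the 11 promoter peaks of these genes the log2 fold change was above 0 in 9, with a median of 0.10, while the median of promoter peaks of all genes was 0.02. With library size alone in place of TMM scaling, 11 of 11 were above 0. That change moved the median of all peaks to 0.14, with 71.6% of them above 0. Without LacZ-shRNA replicate 3 the promoter peaks above 0 were also 11 of 11, against 48.8% of all peaks. Without LacZ-shRNA replicate 1 they were 7 of 11, against 52.0%.

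**Figure D4:**
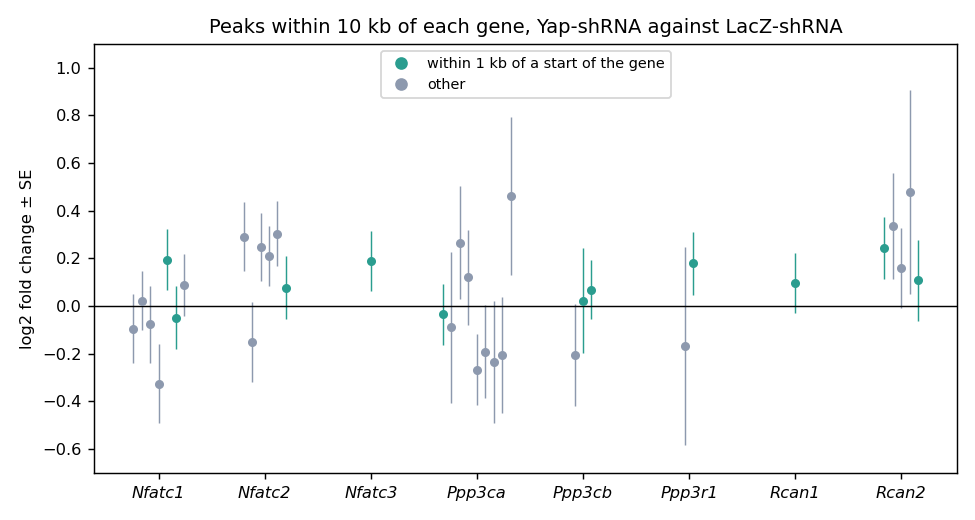
Log2 fold change ± SE (y axis) of the 34 linked peaks by gene (x axis), in genome order within a gene, with promoter peaks in green and others in grey-blue. Rcan2 has 5 of 5 points above 0 and Nfatc2 5 of 6, while those of Ppp3ca lie on both sides of 0.

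Within 10 kb of the 9 genes, the peaks of Nfatc2 had the smallest p-values. The intronic peak at 39.6 kb (chr2:168561306-168562893) held 28.2, 26.7 and 34.6 CPM with LacZ-shRNA and 38.0, 40.4 and 34.6 with Yap-shRNA. LacZ-shRNA replicate 3 and Yap-shRNA replicate 3 had nearly the same value and the other libraries lay apart. The log2 fold change was 0.30 (SE 0.14, 95% interval 0.03 to 0.58, edgeR unadjusted p 0.0310, adjusted p 0.480). A peak downstream of the gene at 132.2 kb (chr2:168468787-168470080), chosen after its values were seen, held 21.6, 25.1 and 24.2 CPM with LacZ-shRNA and 28.5, 27.4 and 30.8 with Yap-shRNA. All 3 Yap-shRNA values lay above the controls, at a log2 fold change of 0.29 (SE 0.14, edgeR unadjusted p 0.0499, adjusted p 0.562). The exonic peak at 81.8 kb, also chosen after its values were seen, was apart too, with a mean of 25.2 ± 4.02 CPM with LacZ-shRNA and 30.8 ± 0.33 with Yap-shRNA (SD, n = 3), a log2 fold change of 0.25. The peak of highest density, at 76.4 kb, had a log2 fold change of 0.21, the promoter peak 0.08, and the peak at 96.9 kb -0.15. Under each other scaling, test, filter, block or left-out library 5 of these 6 peaks were above 0 and none was called, with a smallest adjusted p of 0.145, without LacZ-shRNA replicate 3. Peaks further out did not share this direction. Within 50 kb Nfatc2 had 8 linked peaks, 5 above 0 and 3 below. The one at 143.0 kb, downstream of the gene at chr2:168458039-168459343, held 37.2, 46.7 and 34.6 CPM with LacZ-shRNA and 25.8, 32.1 and 28.6 with Yap-shRNA. All Yap-shRNA values lay below the controls, and its p was the smallest of the 8 (log2 fold change -0.42, SE 0.14, edgeR unadjusted p 0.00419, adjusted p 0.221). The peaks come from the same libraries and are not independent.

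Leukocytes express Nfatc2 strongly, so the values of their markers are set beside this result. The summed window level of 9 leukocyte genes was 171 to 189 CPM in the LacZ-shRNA libraries and 196 to 208 in the Yap-shRNA libraries, so the groups did not overlap. The median log2 fold change of these 9 windows was 0.25, 6 were above 0, and Csf1r, a macrophage receptor, had the smallest unadjusted p (log2 fold change 0.32, edgeR unadjusted p 0.0321, adjusted p 0.946). Ptprc, which encodes the general leukocyte antigen CD45, lay in the other direction (log2 fold change -0.30, edgeR unadjusted p 0.0674), and Lyz2 and Cd79a were also below 0. In the other marker lists 0 genes were called. Of 8 fibroblast windows 4 were above 0 and 4 below, of 8 endothelial 4 and 4, and of 6 satellite cell 2 and 4. Their median log2 fold changes were 0.05, -0.01 and -0.05. Their summed window levels overlapped between the groups in each list. In the LacZ-shRNA libraries they were 235 to 280 (fibroblast), 242 to 255 (endothelial) and 119 to 130 CPM (satellite cell). In the Yap-shRNA libraries they were 258 to 318, 234 to 248 and 114 to 126 CPM. Unadjusted p-values under 0.05 (edgeR) were seen in 4.9% of all windows. Among fibroblast markers they were found for the collagen genes Col1a1 (log2 fold change 0.39) and Col3a1 (0.34). Among endothelial markers they were found for the receptor genes Kdr (-0.59) and Tie1 (-0.37), and among satellite cell markers for Calcr (-0.37). These marker genes were chosen after their values were seen. The part of these markers in the Nfatc2 result was not tested. In sorted pools, more nuclei of a type and more signal per nucleus cannot be told apart.

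Rcan2 had 5 of 5 linked peaks above 0, with a median log2 fold change of 0.24. The promoter peak at 0.5 kb (chr17:43800918-43802834) held 34.2, 35.2 and 40.7 CPM with LacZ-shRNA and 41.9, 47.5 and 42.5 with Yap-shRNA. Each Yap-shRNA library was above each control, by 0.24 on the log2 scale (SE 0.13, 95% interval -0.02 to 0.50, edgeR unadjusted p 0.0654, adjusted p 0.608). The intronic peaks at 54.0, 98.5 and 143.3 kb had log2 fold changes of 0.34, 0.16 and 0.48, the last on a mean count of 15.2, and the peak at 225.3 kb had 0.11. The number above 0 stayed 5 of 5 under each other scaling, test, block or left-out library, and was 4 of 4 with a mean count of at least 50. These fits reuse the same counts, and under library size alone 71.6% of all peaks were above 0. Within 50 kb the number above 0 was 7 of 7. The peak at -45.5 kb, upstream of the gene, had the smallest p and groups that stood apart (log2 fold change 0.52, SE 0.20, edgeR unadjusted p 0.0118, adjusted p 0.341). The peak at 277.5 kb overlaps the window of Enpp5. None of the Rcan2 peaks was called. As for Nfatc2, they come from the same libraries and are not independent.

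In Nfatc1, the intronic peak at 26.6 kb (chr18:80686092-80686810) was lower in every Yap-shRNA library. It held 20.8, 18.7 and 20.9 CPM with LacZ-shRNA and 18.1, 15.7 and 14.7 with Yap-shRNA, a log2 fold change of -0.33 (SE 0.17, 95% interval -0.66 to 0.01, edgeR unadjusted p 0.0554, adjusted p 0.581). Without any 1 library it stayed below 0, from -0.42 to -0.28. The promoter peaks of the gene pointed in different directions, with -0.05 at 0.2 kb and 0.20 at 5.4 kb, and the peak upstream of the gene had 0.09. The only promoter peaks of Nfatc3 and Ppp3r1 had log2 fold changes of 0.19 (SE 0.13) and 0.18 (SE 0.13), and neither passed (edgeR adjusted p 0.730 and 0.779).

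The Ppp3ca promoter peak, the most abundant of the 34, held 111, 124 and 127 CPM with LacZ-shRNA and 122, 115 and 118 with Yap-shRNA. These values were intermixed, with a log2 fold change of -0.03 (SE 0.13, 95% interval -0.29 to 0.23). The intronic peak with the smallest p of this gene, at 132.6 kb, had -0.27 (edgeR unadjusted p 0.0818, adjusted p 0.639). Its groups overlapped. A pair of weak peaks chosen after their values were seen had groups apart, 1 in each direction. The peak at 183.7 kb had a mean of 8.22 ± 0.56 CPM with LacZ-shRNA and 7.01 ± 0.59 with Yap-shRNA (SD, n = 3), a log2 fold change of -0.23 (SE 0.26, 95% interval -0.75 to 0.28, edgeR adjusted p 0.885). The peak at 272.3 kb, downstream of the gene, had 4.51 ± 1.26 and 5.85 ± 0.26 CPM and a log2 fold change of 0.46 (SE 0.33). With mean counts of 41.3 and 28.3 these peaks allow little precision.

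Rcan1 at 4.7 kb, the densest peak, held 47.1, 42.5 and 55.7 CPM with LacZ-shRNA and 59.0, 50.3 and 48.8 with Yap-shRNA. The groups overlapped and the log2 fold change was 0.10 (SE 0.13, 95% interval -0.16 to 0.35, edgeR adjusted p 0.913). The peak at the Ppp3cb start held 47.6, 51.8 and 62.0 CPM with LacZ-shRNA and 54.6, 57.5 and 59.5 with Yap-shRNA. This measure of Ppp3cb, which does not lose the shared reads, gave a log2 fold change of 0.07 (SE 0.13, 95% interval -0.18 to 0.32). Of the 3 linked peaks of Ppp3cb, the one at 49.8 kb had the smallest p (log2 fold change -0.21, SE 0.21, edgeR unadjusted p 0.338, adjusted p 0.872). It lies downstream of the gene and overlaps the window of Mss51. The peak at 27.0 kb had a log2 fold change of 0.02.

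For genes with accessible promoters at different starts, the balance between them was tested as the log2 ratio of the upstream to the downstream promoter peak. For Nfatc1 the ratio was -0.48, -0.85 and -0.67 with LacZ-shRNA and -1.09, -0.79 and -0.80 with Yap-shRNA. The groups overlapped, and the mean difference was -0.23 (exact permutation test, two-sided, p 0.3, 0.45 after adjustment over 3 tests). For Rcan2 the ratio averaged 1.16 ± 0.04 with LacZ-shRNA and 1.29 ± 0.16 with Yap-shRNA (SD, n = 3, exact two-sided permutation p 0.3, adjusted 0.45). For Ppp3cb it was 2.42 ± 0.06 and 2.44 ± 0.14 (SD, n = 3, exact two-sided permutation p 0.9). With 3 libraries against 3 the smallest p this test can give is 0.1.

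Yap reaches DNA through TEAD factors, so the central 300 bases of each peak were searched on both strands for the TEAD letters ACATTCC, and also for the NFAT core GGAAAA, AP-1 (TGANTCA) and MEF2 (CTA and TAG separated by 4 bases). GGAAAA shares its first 4 letters with GGAATGT, the reverse complement of the TEAD letters, and matches to different motifs were counted separately even where they overlap. TEAD letters were found in 1 of the 34 linked peaks (2.94%), against 2.17% of 35982 peaks with sequence. NFAT cores were found in 7 (20.6%, against 11.8%), AP-1 in 2 (5.88%, against 5.20%) and MEF2 in 4 (11.8%, against 3.76%). These shares are descriptions of few peaks. The peak with TEAD letters was the one of Ppp3ca at 183.7 kb described above, in an intron. Its centre is printed as the only linked site with these letters, which are in capitals.
Ppp3ca peak at 183.7 kb, chr3:136853640-136853939 (GRCm38), plus strand: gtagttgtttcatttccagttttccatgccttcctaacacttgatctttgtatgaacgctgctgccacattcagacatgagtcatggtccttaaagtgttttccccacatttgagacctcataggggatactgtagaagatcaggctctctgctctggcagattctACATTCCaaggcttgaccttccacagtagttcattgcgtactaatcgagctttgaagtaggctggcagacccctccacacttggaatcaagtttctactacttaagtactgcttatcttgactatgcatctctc
The same stretch holds 2 NFAT cores and 1 AP-1 match. Its values in the 6 libraries were 8.76, 7.64 and 8.25 CPM with LacZ-shRNA and 7.63, 6.95 and 6.45 with Yap-shRNA, with LacZ-shRNA replicate 2 and Yap-shRNA replicate 1 nearly equal. None of the 11 promoter peaks held TEAD or AP-1 letters, and 2 held the NFAT core.

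Other genes of the pathway were examined as lists over windows, and 0 were called in any of them. The 4 remaining family genes (Ppp3cc, Ppp3r2, Rcan3 and Nfat5) had log2 fold changes from -0.01 to 0.04. Of 12 calmodulin and calcineurin partners 5 were above 0 and 7 below, with a median of -0.02, and the smallest p belonged to Myoz2, a calcineurin-binding protein of the sarcomere (log2 fold change -0.30, edgeR unadjusted p 0.105). Of 6 kinases that phosphorylate NFAT and so oppose calcineurin, 2 were above 0 and 4 below, with a median of -0.09 and the smallest p at Gsk3b (log2 fold change -0.18, edgeR unadjusted p 0.188).

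Store-operated calcium entry feeds calcineurin through STIM sensors and ORAI channels. Of its 5 genes, the channel gene Orai2 had an unadjusted p under 0.05. Its window held 12.5, 18.3 and 19.6 CPM with LacZ-shRNA and 21.2, 23.7 and 26.2 with Yap-shRNA. The groups stood apart, at a log2 fold change of 0.49 (SE 0.17, 95% interval 0.15 to 0.83, edgeR unadjusted p 0.00540), but the adjusted p was 0.946. The other 4 genes had none under 0.05, and the median of the list was -0.04. Groups stood apart in 1 of the 5 windows, against 10.1% of all windows. Slow and oxidative fibre genes, the programme that calcineurin and NFAT are known to promote, had 8 of 10 windows above 0 with a median of 0.06. Of all windows 47.3% were above 0. The 2 below 0 were Ppargc1a (-0.17) and Tnnc1 (-0.09). Groups stood apart in 1 of these 10 windows. Tnni1, the slow isoform of troponin I, held 59.5, 73.4 and 61.3 CPM with LacZ-shRNA and 78.3, 76.7 and 77.2 with Yap-shRNA. All Yap-shRNA libraries were higher, at a log2 fold change of 0.27 (SE 0.13, edgeR unadjusted p 0.05003, adjusted p 0.946). The 8 muscle fibre markers, which join genes of fast fibres with Ttn, Acta1 and Ckm, had 7 of 8 windows below 0, with a median of -0.14, and 0 with an unadjusted p under 0.05.

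The gene most like each member was the one whose window had the smallest root mean square difference in mean-centred log2 CPM over the 6 libraries, among 32330 windows. The closest match of all was Coq8a for Rcan1, at 0.0084, followed by Mcur1 for Ppp3ca (0.011), Arpc1b for Nfatc2 (0.014) and Suv39h1 for Nfatc3 (0.015). Rcan2 was closest to Rtkn2 and Ppp3cb to Lingo3 (0.021 each), Ppp3r1 to Zfp90 (0.026), Nfatc4 to Prag1 (0.027) and Nfatc1 to Foxk1 (0.032). With 6 libraries and so many windows, close matches are found for any flat pattern, and these values are descriptions.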

How the data were processed

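ATAC-seq was performed on 6 pools of sorted myonuclei. Reads were mapped to GRCm38 by the authors with BWA 0.7.17, duplicates were removed with SAMtools 1.8, peaks were called with MACS 1.4.2-1, and peaks found in more than a single sample were counted with featureCounts 1.5.0. The deposited values are raw read counts in 1 table of peaks and 1 of windows around transcription start sites, from which rows averaging under 10 reads had been removed. A mapping quality limit for these tables is not given in the sources used here. Counts of overlapping windows are incomplete, because reads in a shared stretch are not assigned (10344 of 49366 windows).

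All rows of each table were fitted with edgeR 4.0.16 in R 4.3.3 (quasi-likelihood test, TMM factors, no covariate, Benjamini-Hochberg adjustment at 0.05). CPM values are scaled by the TMM library sizes, and SE and 95% intervals come from that fit. The test was also run on simulated data with known changes. Annotation was GENCODE vM21 of the same build, and a peak was linked to a gene within 10 kb of its ends. Groups were taken from the sample labels. No pair of replicates matched within sampling noise (chi-square of at least 1.95 per feature), so all 6 libraries were kept.

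The members and the gene lists were chosen with earlier results of these data known. All members are named, with their promoter peaks, their densest peak and their peak with the smallest p. From the other pathway lists, genes with an unadjusted p under 0.05 are named, or else the one with the smallest p. Alternatives were library size alone, DESeq2 size factors, the likelihood-ratio test, DESeq2 1.42.0, a mean count of at least 50, a replicate block, leaving out each library and, for peaks, a distance of 50 kb. The leukocyte list lacks Itgam, which had no row.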

Additional observations from a re-analysis of the deposited data

How the results depend on the processing

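None of the 9 windows or linked peaks passed the threshold in any alternative (0 calls each), with a smallest adjusted p of 0.610 for windows (without LacZ-shRNA replicate 3) and 0.145 for named peaks. For 6 of the 34 linked peaks DESeq2 returned no adjusted p. Within 50 kb, 54 peaks were linked and 0 passed, while 33 were above 0, where 49.5% of all peaks were. An unadjusted p under 0.05 (edgeR) was found for 6 of the 54, 4 higher and 2 lower, where 8.9% of all peaks had one. The counts above 0 at this distance were added after seeing the data. Signs near 0 were not stable. Library size alone moved the median of all windows to 0.046 and of all peaks to 0.14, and turned the log2 fold changes of the Nfatc4 (0.011), Ppp3ca (0.018), Ppp3r1 (0.051) and Rcan1 (0.045) windows and of the Nfatc1 peak at 0.2 kb (0.094) and the Ppp3ca peak at 0.5 kb (0.11). Leaving out each library gave windows of -0.14 to 0.23 for Nfatc1, -0.037 to 0.11 for Nfatc2, -0.15 to 0.11 for Nfatc4, -0.15 to 0.024 for Ppp3ca, -0.0099 to 0.21 for Ppp3cb, -0.15 to 0.14 for Ppp3r1, -0.13 to 0.089 for Rcan1 and -0.012 to 0.32 for Rcan2, lowest without LacZ-shRNA replicate 1 in each. It gave -0.13 to 0.10 and -0.091 to 0.010 for those Nfatc1 and Ppp3ca peaks, -0.081 to 0.23 and -0.020 to 0.21 for the Ppp3cb peaks at 27.0 and 0.3 kb, and -0.052 to 0.090 for the promoter balance of Ppp3cb. The Nfatc3 window stayed above 0 (0.039 to 0.18).

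Over all windows, the count of 11 calls was 33 under the likelihood-ratio test and 20 under DESeq2. Leaving out each library gave 157 at most (LacZ-shRNA replicate 1 omitted) and 4 at least (Yap-shRNA replicate 2 omitted). For peaks the count of 223 was 378 and 118 under those tests and 136 with a mean count of at least 50. It reached 447 with LacZ-shRNA replicate 3 omitted and 94 with Yap-shRNA replicate 1 or 2 omitted. Library size alone called 229 peaks, 124 higher and 105 lower, against 17 and 206. The cause was not tested.

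The replicate numbers were not treated as pairs. Same-numbered samples correlated in their deviations from group means by -0.12 to 0.19 in windows and -0.14 to 0.015 in peaks. With the number as a replicate block, 13 windows and 207 peaks were called, 0 of them members, and the balance tests gave an exact permutation p of 0.5 (Nfatc1), 1 (Ppp3cb) and 0.5 (Rcan2).

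Calls were made on p-values adjusted over all windows or all peaks. The Kdr and Orai2 windows did not pass at log2 fold changes of -0.59 and 0.49 (edgeR adjusted p 0.909 and 0.946). The 95% intervals are those of single windows or peaks and are not a detection limit. What sets their width, be it the lower counts of LacZ-shRNA replicates 1 and 2 or, in peaks, the distance of LacZ-shRNA replicate 3 from them, was not tested.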
